A study of Homo sapiens with 15 samples.

Results

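The Mastermind-like genes MAML1, MAML2 and MAML3 encode nuclear coactivators of NOTCH signalling. They were followed across lymphoid cell lines on Affymetrix U133 Plus 2.0 arrays. Members were the probe sets that the platform annotation assigns to one of these symbols and to no other gene. This gave 6 of the 41091 probe sets with 1 gene symbol, and 3 of 19775 genes. MAML1 had 1 probe set (202360_at), MAML2 had 2 (235457_at and 235106_at) and MAML3 had 3 (228508_at, 207946_at and 242794_at). The brightest probe set of each gene, by mean over the 15 arrays, stood for it: 202360_at, 235457_at and 228508_at.

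The study set cell lines from Hodgkin lymphoma against lines from other lymphoid malignancies. Total RNA of 9 established human lines, with no treatment named in the labels, was hybridised to 15 arrays. By their labels 6 lines (10 arrays) came from classical Hodgkin lymphoma, namely HDLM2, KM-H2, L1236, L428, L540 and its relative L540Cy. Namalwa came from Burkitt lymphoma, SU-DHL-4 from B non-Hodgkin lymphoma and Reh from B acute lymphoblastic leukaemia (5 arrays together), and these 3 are called the non-Hodgkin lines here. The design text gives biological duplicates for 6 lines, while L540, L540Cy and SU-DHL-4 have 1 array each. L540Cy is known as a subline of L540, so the group comparison used their mean, and 5 Hodgkin lines of origin stood against 3 non-Hodgkin lines. Although the labels do not state it, HDLM2 and L540 are known to be of T cell origin, and KM-H2, L1236 and L428 of B cell origin. A cell line is the outgrowth of 1 patient's tumour, and no normal lymphocytes were among the samples used here.

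NOTCH receptors are cleaved after they bind a ligand on a neighbouring cell, and the freed intracellular domain enters the nucleus. There it binds the DNA-binding factor RBPJ, and a Mastermind-like protein clamps onto the groove that the NOTCH domain and RBPJ form together. The complex recruits histone acetyltransferases such as EP300 and switches on target genes such as HES1, and in B cells NOTCH2 is known for its part in marginal zone development. MAML2 is also known as the partner of CRTC1 in the fusion gene of mucoepidermoid carcinoma.

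The stretch of 250 bases before the RefSeq start of each gene is shown because the 3 paralogues had different patterns over the lines. The sequences are from RefSeq (GRCh38.p14), and all 3 members matched by symbol. Each is printed 5′ to 3′ on the strand of its gene, with GC boxes (GGGCGG) and CCAAT boxes (CCAAT), on either strand, in capitals. MAML1 lies on chromosome 5 at chr5:179732572-179732821 (plus strand), MAML2 on chromosome 11 at chr11:96343196-96343445 (minus strand) and MAML3 on chromosome 4 at chr4:140154185-140154434 (minus strand).
MAML1: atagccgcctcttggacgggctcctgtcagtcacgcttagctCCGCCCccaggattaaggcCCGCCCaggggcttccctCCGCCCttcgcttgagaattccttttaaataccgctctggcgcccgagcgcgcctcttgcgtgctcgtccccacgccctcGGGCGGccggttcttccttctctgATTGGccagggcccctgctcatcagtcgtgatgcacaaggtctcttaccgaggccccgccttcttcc
MAML2: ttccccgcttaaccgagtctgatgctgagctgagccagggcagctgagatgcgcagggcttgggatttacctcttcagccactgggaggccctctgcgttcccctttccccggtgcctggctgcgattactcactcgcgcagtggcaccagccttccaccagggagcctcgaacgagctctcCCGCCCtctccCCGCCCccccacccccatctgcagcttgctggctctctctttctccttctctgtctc
MAML3: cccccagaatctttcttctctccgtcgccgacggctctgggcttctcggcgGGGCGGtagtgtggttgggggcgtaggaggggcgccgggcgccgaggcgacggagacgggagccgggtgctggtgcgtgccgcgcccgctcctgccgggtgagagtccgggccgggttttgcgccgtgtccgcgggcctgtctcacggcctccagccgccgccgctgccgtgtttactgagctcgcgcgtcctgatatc

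The MAML1 stretch held 4 GC boxes and 1 CCAAT box, that of MAML2 held 2 GC boxes, and that of MAML3 held 1 GC box. Among 35116 RefSeq stretches of this length, 42.6% held a GC box and 32.0% a CCAAT box. The RBPJ core TGGGAA and the TATA box TATAAA, searched on both strands, occurred in none of the 3 windows, against 20.8% and 10.7% of all stretches. MAML3 had the highest GC content, at 72.4% with 35 CpG dinucleotides. MAML1 had 64% with 21, and MAML2 had 63.6% with 12, close to the medians of 58% and 11 over all stretches. These letters describe the reference sequence, and the arrays do not show which start a line uses.

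Array medians lay between 5.501 and 5.57 log2, and the upper quartile was lower in Namalwa replicate 2 (7.31) than in the other arrays (7.54 to 7.72). The SD between duplicate arrays over all genes was 0.17 to 0.26 log2 in the Hodgkin lines with 2 arrays, 0.37 in Namalwa and 0.44 in Reh. The array labelled Reh replicate 1 stood apart. Over 22 genes that SU-DHL-4 expressed more than 3 log2 above every other array but that one, it was above Reh replicate 2, with a median difference of 3.995 log2. Results are therefore also given without it. The number of arrays, not a read depth, limits precision here, and differences of dim probe sets are compressed by the RMA summary that made the values.

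**Figure D1:**
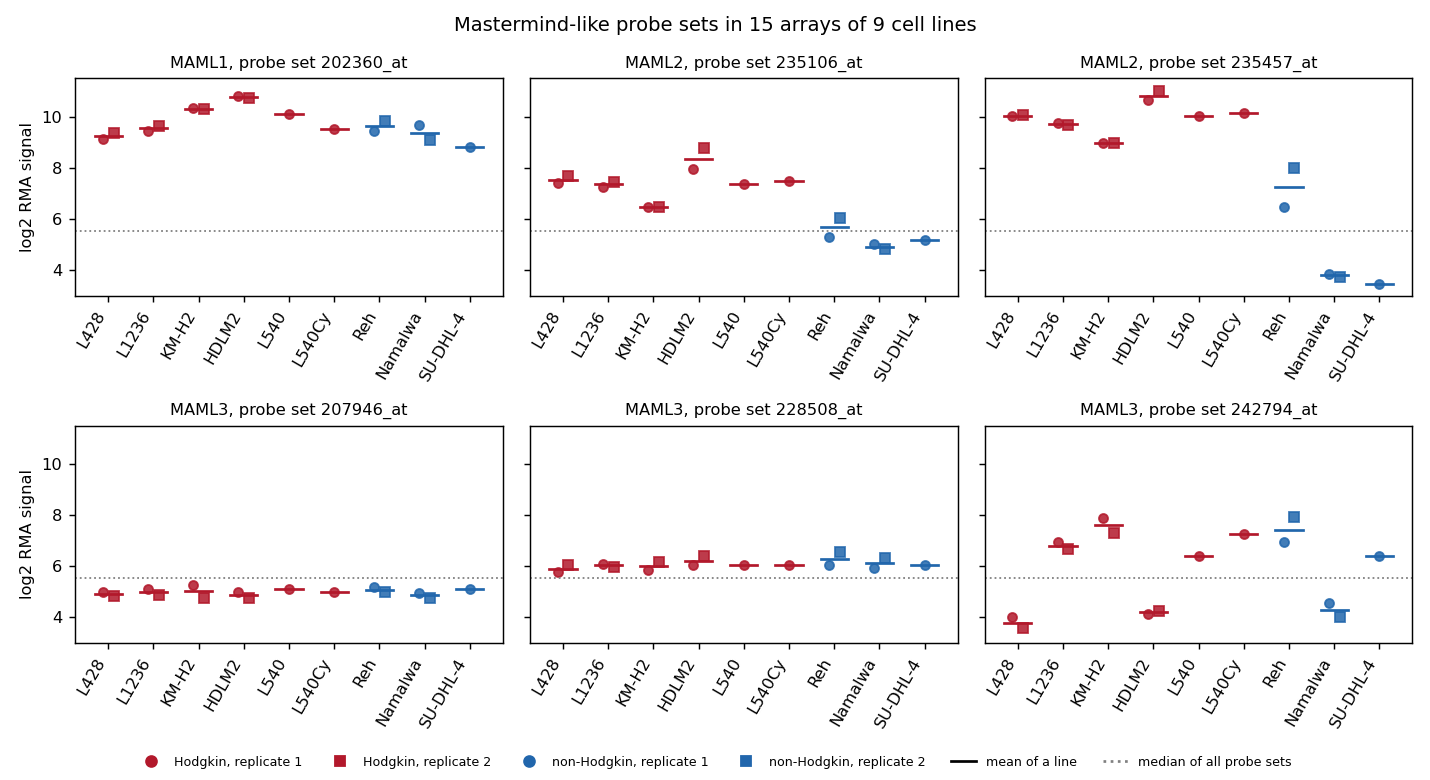
Log2 RMA signal (y axis) of the 6 Mastermind-like probe sets in each array, by cell line (x axis), with Hodgkin lines in red and non-Hodgkin lines in blue; bars are means of a line and the dotted line is the median of all probe sets. MAML2 235457_at was at 8.95 or above in all 10 Hodgkin arrays and at 7.996 or below in the other 5, while MAML3 242794_at was high and low in lines of both kinds.

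MAML2 was the member whose level separated the lines by disease. Its brighter probe set, 235457_at, read 10.65 and 10.99 log2 in HDLM2, 10.03 and 10.05 in L428, and 9.74 and 9.67 in L1236. It read 8.98 and 8.95 in KM-H2, 10.01 in L540 and 10.14 in L540Cy. In the non-Hodgkin lines the values were 6.47 and 7.996 in Reh, 3.84 and 3.75 in Namalwa, and 3.44 in SU-DHL-4. All Hodgkin arrays were thus high, Namalwa and SU-DHL-4 were low, and Reh lay between with its arrays far apart. The groups did not overlap, with a gap of 1.73 log2 between the lowest Hodgkin line, KM-H2 (8.97), and the highest other line, Reh (7.23).

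Over lines of origin MAML2 was at 9.92 ± 0.67 log2 (SD, n = 5) in the Hodgkin group and 4.82 ± 2.10 (SD, n = 3) in the other, a difference of 5.10 ± 0.88 log2 (SE, adjusted p = 0.0451, limma with Benjamini-Hochberg adjustment over 19775 genes). Namalwa and SU-DHL-4 were the lowest lines, and signal over background was not analysed here, so no fold is given. At this threshold of 0.05, 0.759% of all genes were called higher in Hodgkin lines (150 genes), 0.612% lower (121) and 1.37% in either direction. Groups of lines did not overlap for 10.7% of all genes. By size of difference MAML2 ranked 37 among the 19775 genes and 27 among the 150 called higher. In Reh, replicate 1 minus replicate 2 was -1.52 log2 for MAML2, a wider gap than in 97.6% of genes. Without Reh replicate 1 the difference was 4.85 ± 1.03 log2, the gap was 0.97 and the call was lost (adjusted p = 0.0936). It was also lost without L428 (5.07, adjusted p = 0.0881), L1236 (5.15, 0.0924), KM-H2 (5.34, 0.0593), HDLM2 (4.88, 0.0943), L540 with L540Cy (5.06, 0.0934), Namalwa (4.59, 0.148) or SU-DHL-4 (4.41, 0.142), and held without Reh (6.31, 0.0023).

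**Figure D2:**
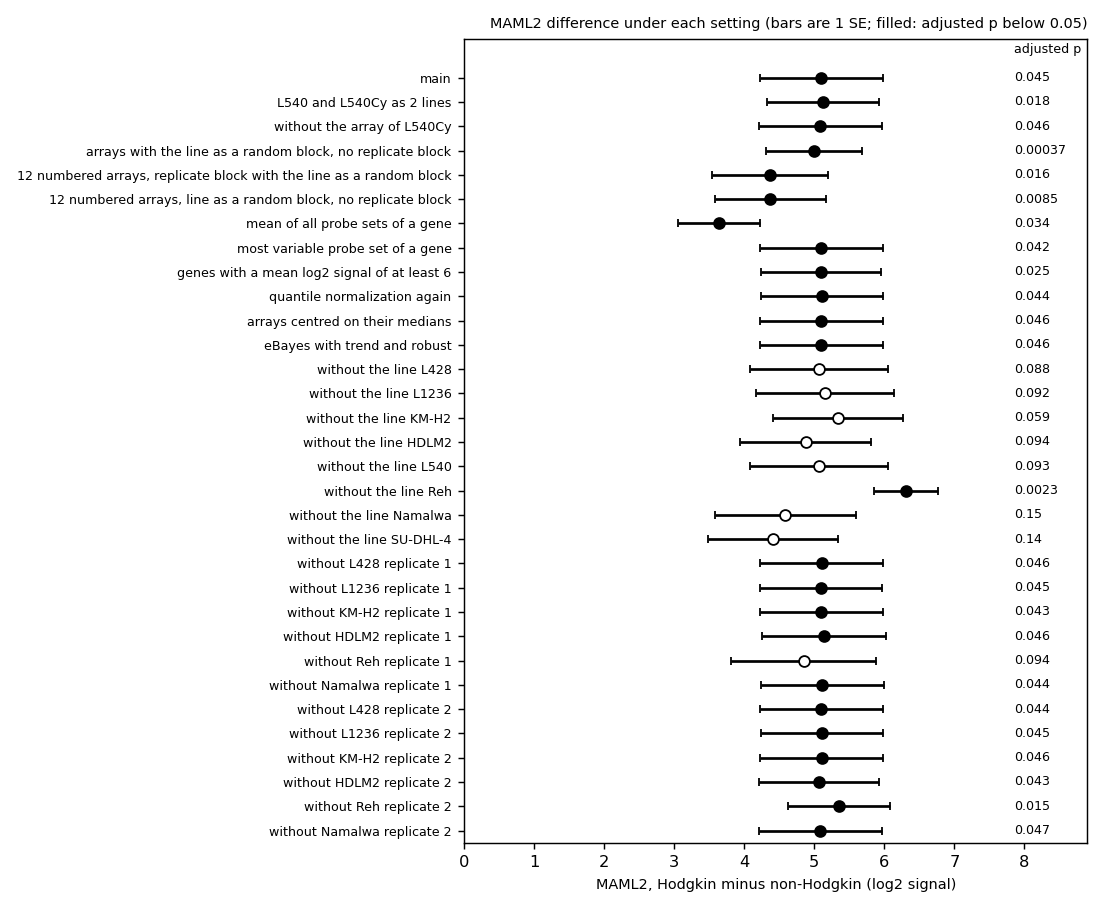
MAML2 difference, Hodgkin minus non-Hodgkin (x axis, log2 signal), under the main setting and each alternative (y axis); points are estimates, bars are 1 SE, filled points passed an adjusted p of 0.05 and the adjusted p stands at the right. The estimates lay between 3.64 and 6.31, and 8 of the 31 alternatives lost the call.

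The second MAML2 probe set, 235106_at, followed the first on a narrower scale. It read 7.94 and 8.78 log2 in HDLM2, 7.41 and 7.67 in L428, 7.26 and 7.46 in L1236, 6.48 and 6.47 in KM-H2, 7.35 in L540 and 7.50 in L540Cy. The non-Hodgkin values were 5.30 and 6.05 in Reh, 5.02 and 4.82 in Namalwa, and 5.17 in SU-DHL-4. Again every Hodgkin array was above every other array. Its means were 7.43 ± 0.67 (SD, n = 5) and 5.25 ± 0.39 (SD, n = 3), a difference of 2.18 ± 0.39 log2 (SE). This did not pass over all probe sets (adjusted p = 0.0529 by limma, against 0.0466 for 235457_at and 1.2% of probe sets called in either direction). The 2 probe sets correlated at r = 0.943 (Spearman's rho 0.952) over the 8 lines of origin, which share the same arrays and fall into separate levels.

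Levels of single lines were compared in a fit of all 15 arrays with a mean for each line, over the 36 pairs of the 9 lines. For MAML2 21 pairs passed, against a median of 5 per gene (quartiles 0 and 13) and 20.2% of all gene and pair combinations. These were all 18 pairs of a Hodgkin with a non-Hodgkin line (1.73 to 7.38 log2), 1 of 15 pairs within the Hodgkin lines and 2 of 3 within the others. The pair within the Hodgkin lines was HDLM2 over KM-H2, by 1.85 ± 0.38 log2 (SE, adjusted p = 0.00472, limma; 25.7% of genes were called in this pair). Reh exceeded Namalwa by 3.44 log2 (adjusted p = 0.00024) and SU-DHL-4 by 3.80 (adjusted p = 0.000706), pairs in which 15.9% and 7.89% of genes were called.

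The second MAML2 probe set gave 20 of 36 pairs, against 16.7% of all probe set and pair combinations. These were 17 of 18 Hodgkin with non-Hodgkin pairs, 3 of 15 within the Hodgkin lines and 0 of 3 within the others. On 235106_at Reh was above Namalwa by 0.76 log2 (adjusted p = 0.15, limma) and above SU-DHL-4 by 0.51 (adjusted p = 0.605), and was below KM-H2 by 0.80 (adjusted p = 0.0954). None of these passed with all 15 arrays. Without Reh replicate 1, which leaves Reh with 1 array, Reh was above Namalwa by 1.13 log2. It was then above SU-DHL-4 by 0.89 log2 and below KM-H2 by 0.43.

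From high to low the order of MAML2 235457_at was HDLM2, L540Cy, L428, L540, L1236, KM-H2, Reh, Namalwa and SU-DHL-4. Of the neighbours in this order, KM-H2 and Reh differed (1.73 log2, adjusted p = 0.00688, a pair with 25.4% of genes called), as did Reh and Namalwa, while the others were 0.03 to 0.74 log2 apart and did not pass. L540 minus its subline L540Cy was -0.13 log2. Without Reh replicate 1, which leaves Reh with 1 array, KM-H2 was above Reh by 0.97 log2. The SE of the difference between HDLM2 and KM-H2 was then 0.15 log2, against 0.38 with all arrays. Which pairs within the Hodgkin lines passed for MAML2 thus depended on that array.

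MAML1, the founding family member, was bright in every line and varied less. It read 10.80 and 10.75 log2 in HDLM2, 10.33 and 10.29 in KM-H2, 9.45 and 9.65 in L1236, 9.13 and 9.37 in L428, 10.11 in L540 and 9.54 in L540Cy. The other arrays were at 9.44 and 9.84 for Reh, 9.68 and 9.08 for Namalwa, and 8.81 for SU-DHL-4. The groups overlapped, with HDLM2 highest and SU-DHL-4 lowest. The means were 9.94 ± 0.61 (SD, n = 5) and 9.28 ± 0.43 (SD, n = 3), and the difference of 0.67 ± 0.37 log2 (SE) did not pass (adjusted p = 0.475, limma). Without Reh replicate 1 it was 0.60 log2 (adjusted p = 0.562).

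Among lines, 12 of 36 pairs passed for MAML1. This lay within the quartiles of all genes (0 and 13, median 5), and 20.2% of all gene and pair combinations passed. HDLM2 and KM-H2 took part in 11 of the 12 pairs as the higher line. Examples were HDLM2 over SU-DHL-4 (1.97 log2, adjusted p = 0.000435, limma, 22.7% of genes called) and KM-H2 over L428 (1.06 log2, adjusted p = 0.00536, 24.3%). The remaining pair was L540 over SU-DHL-4 (1.30 log2, adjusted p = 0.0168; 16% of genes called). By kind these were 7 of 18 Hodgkin with non-Hodgkin pairs, 5 of 15 within the Hodgkin lines and 0 of 3 within the others. No neighbours in the order of MAML1 differed beyond the spread. KM-H2 was thus second highest in MAML1 and lowest of the Hodgkin lines in MAML2.

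MAML3 gave different pictures by probe set. Its brightest, 228508_at, read 5.76 to 6.53 log2 over the 15 arrays, with L428 replicate 1 lowest and Reh replicate 2 highest. The means were 6.03 ± 0.11 (SD, n = 5) and 6.14 ± 0.13 (SD, n = 3), a difference of -0.10 ± 0.11 log2 (SE, adjusted p = 0.705, limma), and 0 of 36 pairs of lines passed. Without Reh replicate 1 the difference was -0.19 log2 (adjusted p = 0.615). The exact value of 6.03 log2 stood in 5 arrays of 5 lines. Of all 54675 probe sets, 11.04% shared 1 value among at least 3 lines, and in 92.9% of these it was the probe set's median. The second probe set, 207946_at, was as flat, at 4.73 to 5.28 log2 (difference -0.05, adjusted p = 0.841 over all probe sets).

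The third MAML3 probe set, 242794_at, fell into a high and a low level that crossed the disease groups. It read 7.90 and 7.30 log2 in KM-H2, 6.92 and 6.67 in L1236, 6.41 in L540 and 7.25 in L540Cy, but 4.14 and 4.25 in HDLM2 and 3.99 and 3.57 in L428. Among the other lines it read 6.93 and 7.91 in Reh and 6.40 in SU-DHL-4, but 4.55 and 4.01 in Namalwa. HDLM2, L428 and Namalwa were thus low and the other 6 lines high. The group means were 5.84 ± 1.73 (SD, n = 5) and 6.03 ± 1.60 (SD, n = 3), and the difference was -0.19 ± 1.11 log2 (SE, adjusted p = 0.955 over all probe sets, limma).

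Over pairs of lines 18 of 36 passed for 242794_at, against a median of 3 per probe set and 16.7% of all probe set and pair combinations, and all were pairs of a high with a low line. Of neighbours in its order, SU-DHL-4 and Namalwa differed (2.12 log2, adjusted p = 0.0139, limma; 7.75% of probe sets called), and no others passed. It correlated at r = 0.139 with 228508_at and 0.831 with 207946_at over the 8 lines of origin. Where in MAML3 transcripts these probe sets lie was not analysed here, so which of them follows the gene's level was not tested.

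**Figure D3:**
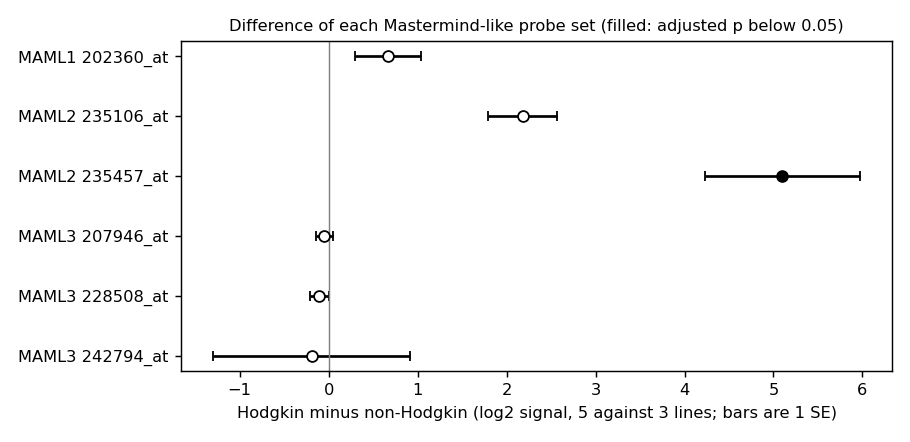
Difference between Hodgkin and non-Hodgkin lines (x axis, log2 signal, 5 against 3 lines of origin) for each Mastermind-like probe set (y axis); points are limma estimates, bars are 1 SE and filled points have an adjusted p below 0.05. MAML2 235457_at (5.10) was the probe set past the threshold, 235106_at (2.18) was just outside it, and the SE of MAML3 242794_at (1.11) was the widest.

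The paralogues were then compared in their change, not in level, through the difference between genes within each line. The Hodgkin minus non-Hodgkin difference of MAML2 exceeded that of MAML1 by 4.43 log2 and that of MAML3 by 5.20 log2, each with an exact permutation p of 0.0179, two-sided, the smallest that 56 splits of the 8 lines allow (Benjamini-Hochberg adjusted p = 0.0268 over 3 comparisons). MAML3 against MAML1 differed by -0.77 log2 (exact permutation p = 0.0714, adjusted 0.0714). Leaving out Reh, Namalwa or SU-DHL-4 raised the adjusted p of both MAML2 comparisons to 0.0714 in this exact permutation test. The differences were then 3.87 to 5.46 log2 to MAML1 and 4.57 to 6.34 to MAML3. Fewer lines leave fewer splits and a larger smallest p, so this rise does not show a weaker difference. By SD over lines of the probe set that stood for each gene, MAML2 was at percentile 99.3 of all genes, MAML1 at 72.6 and MAML3 at 14.5. These SDs were 2.91, 0.62 and 0.12 log2, so both MAML2 comparisons mostly restate that MAML2 separated the groups. The MAML3 value is that of 228508_at only, while 242794_at had an SD of 1.59 log2 over the 15 arrays. MAML1 and MAML2 levels correlated at r = 0.649 (rho 0.619) over 8 lines.

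All non-Hodgkin lines here are of B lineage, so the B cell derived Hodgkin lines were also set against them alone. MAML2 was at 9.57 ± 0.55 log2 (SD, n = 3) in the former, and the difference of 4.75 ± 1.01 log2 (SE) did not pass (adjusted p = 0.119, limma; 0.915% of genes were called). It passed in 2 of 28 alternatives by limma, without Reh (5.96, adjusted p = 0.00662) and without Reh replicate 2 (5.004, 0.0456). Without replicate 2, Reh rested on replicate 1, the array that stood apart. Without replicate 1 the MAML2 difference did not pass. The corresponding differences were 0.43 log2 for MAML1 (adjusted p = 0.656) and -0.16 for MAML3 (adjusted p = 0.588). Between T and B cell derived Hodgkin lines MAML2 differed by 0.88 log2 (10.45 against 9.57, adjusted p = 0.919), MAML1 by 0.59 (0.853) and MAML3 by 0.15 (0.877), where 0.197% of genes were called.

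Markers that separate the groups as a whole stand beside the MAML2 result. Of all genes, 1.37% were called in either direction. Of 6 B cell markers measured, 3 were lower in Hodgkin lines (CD79A, CD79B and CD22) and 0 higher. Mean levels were 5.70 to 6.48 log2 over the Hodgkin lines and 10.28 to 11.43 over the others. Single markers stayed high in some Hodgkin lines. PAX5 was at 10.81 in L1236, against 10.78 in SU-DHL-4, and at 5.60 to 7.21 in the other Hodgkin lines. BLK was at 8.77 in L540 and 9.23 in L540Cy, against 9.39 in Reh, and at 5.48 to 7.88 in the other Hodgkin lines. Of 5 Hodgkin and Reed-Sternberg cell markers, 2 were higher (TNFRSF8, which encodes CD30, and IRF4) and 0 lower, with mean levels of 9.68 to 11.92 against 5.47 to 6.54. None of 7 T cell markers was called (5.08 to 6.56 against 5.52 to 5.69). CD3E and CD3G were at 4.43 to 5.76 log2 in every line, and CD3D was highest in KM-H2 (8.60) and at 5.39 to 6.49 in the other 8 lines. CD247 was at 10.19 in HDLM2, 10.21 in L540 and 10.50 in L540Cy, against 8.73 in SU-DHL-4, 7.12 in Reh, 6.88 in Namalwa and 5.44 to 5.71 in the B cell derived Hodgkin lines. CD2 was at 10.75 in HDLM2, 6.70 in L540 and 4.73 to 5.18 elsewhere, L540Cy (4.89) included. CD5 averaged 6.47 log2 over the Hodgkin lines and 6.48 over the others, and TRAT1 3.38 and 3.62. None of 6 monocyte, 5 NK and 6 stromal markers was called, but some were high in certain lines. NKG7 was at 11.24 in L540 and 12.15 in L540Cy, against 4.61 to 6.32 elsewhere. CSF1R was at 8.25 in KM-H2, 8.15 in L540 and 8.53 in L540Cy, against 6.24 to 6.89 elsewhere. CD14 was at 7.96 in KM-H2 (4.63 to 5.28 elsewhere) and DCN at 9.92 in SU-DHL-4 (5.51 to 6.72 elsewhere). The part of these cell identity differences in the MAML2 difference was not tested.

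Genes of the NOTCH pathway, from a list by role that includes the MAML genes, mostly did not separate the groups. Of 72 members 68 were measured, and 1 was called higher (MAML2), 2 lower (DTX1 and DTX4) and 65 neither, so 4.41% were called against 1.37% of all genes. Without Reh replicate 1 the counts were 0 higher and 1 lower. At an unadjusted p below 0.05 there were 9, and the share over all genes was 14.2%. The median difference was -0.02 log2, as over all genes (-0.02). Leaving the MAML genes out of the list, 65 genes were measured, of which 2 were called (3.08%, both lower). Of these 65, 8 had an unadjusted p below 0.05.

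Of the 4 receptors none was called. NOTCH2 was at 11.02 ± 0.54 log2 (SD, n = 5) against 7.91 ± 1.49 (SD, n = 3), a difference of 3.11 ± 0.64 log2 (SE, adjusted p = 0.0738, limma). By line it read 10.44 in L428, 11.78 in L1236, 11.17 in KM-H2, 11.15 in HDLM2, 10.52 in L540, 10.59 in L540Cy, 9.57 in Reh, 7.45 in Namalwa and 6.70 in SU-DHL-4. Reh again lay between the Hodgkin lines and the other 2 lines, and NOTCH2 correlated with MAML2 at r = 0.948 over the 8 lines of origin. It passed in 7 of its 31 alternatives: without Reh (3.94, adjusted p = 0.0114), without Reh replicate 2 (3.24, 0.036), with L540 and L540Cy as 2 lines (3.03, 0.0404), with a filter on dim genes (0.0452), with arrays fitted and the line as a random block (3.02, 0.0014), and on the 12 numbered arrays (2.62) with the replicate block (0.0268) or without it (0.0125). Without Reh replicate 2, Reh rested on replicate 1, the array that stood apart, and without replicate 1 NOTCH2 did not pass. NOTCH4 differed by 0.70 log2 (adjusted p = 0.781).

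Of the 5 ligands none was called, and the widest differences were 1.20 log2 for JAG2 and -0.67 for JAG1. None of 8 receptor processing genes was called. PSEN2, a catalytic subunit of gamma-secretase, differed by 1.85 log2 (adjusted p = 0.121) and FURIN, the convertase that cuts the receptor precursor, by 0.58. None of 9 genes of receptor glycosylation and ligand endocytosis was called, with -2.07 log2 for the fringe enzyme MFNG and 1.08 for the O-glucosyltransferase POGLUT1.

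Among 12 genes of the nuclear complex MAML2 alone was called. RBPJ, the DNA-binding partner of the Mastermind-like proteins, differed by 0.59 ± 0.43 log2 (SE, adjusted p = 0.582, limma), and the acetyltransferase EP300 by -0.75 (adjusted p = 0.253). These 2 were named after their values were seen. None of 7 corepressors was called, with -0.83 log2 for TLE1 and -0.63 for L3MBTL3.

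Among 7 Deltex and NUMB genes, 2 were lower. DTX1, a NOTCH-binding ubiquitin ligase, was at 6.24 ± 0.35 log2 (SD, n = 5) against 10.38 ± 0.34 (SD, n = 3), lower by 4.14 ± 0.24 log2 (SE, adjusted p = 0.000358, limma). It was at 5.88 to 6.68 in the Hodgkin lines and 9.98 to 10.58 in the others, and the call held in all 31 alternatives (adjusted p of 0.00278 or lower). Its paralogue DTX4 was at 5.17 ± 0.15 log2 (SD, n = 5) against 7.34 ± 0.98 (SD, n = 3), lower by 2.17 ± 0.39 log2 (adjusted p = 0.0499), with Reh (6.21) below Namalwa (7.83) and SU-DHL-4 (7.99). The DTX4 call was lost in 17 of 30 alternatives, among them without Reh replicate 1 (-1.96, adjusted p = 0.17), L428 (0.0905), L1236 (0.109), KM-H2 (0.0854), HDLM2 (0.102), L540 with L540Cy (0.101), Namalwa (0.157) or SU-DHL-4 (0.155). Single arrays also ended it: L540Cy (adjusted p = 0.0539), L428 replicate 2 (0.0511), either L1236 replicate (0.0516 each), KM-H2 replicate 2 (0.0544), HDLM2 replicate 2 (0.0557) or Namalwa replicate 2 (0.0515). Over 8 lines DTX4 and DTX1 correlated with MAML2 at r = -0.976 and -0.929.

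None of 16 NOTCH target genes was called. The widest differences were -3.33 log2 for IL7R, the interleukin-7 receptor (adjusted p = 0.333, limma), and 1.88 for FCER2, which encodes CD23 (adjusted p = 0.393). HES1, a classical target and named after its value was seen, was at 6.23 ± 1.27 log2 (SD, n = 5) against 5.86 ± 0.60 (SD, n = 3), a difference of 0.37 log2 (adjusted p = 0.845).

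**Figure D4:**
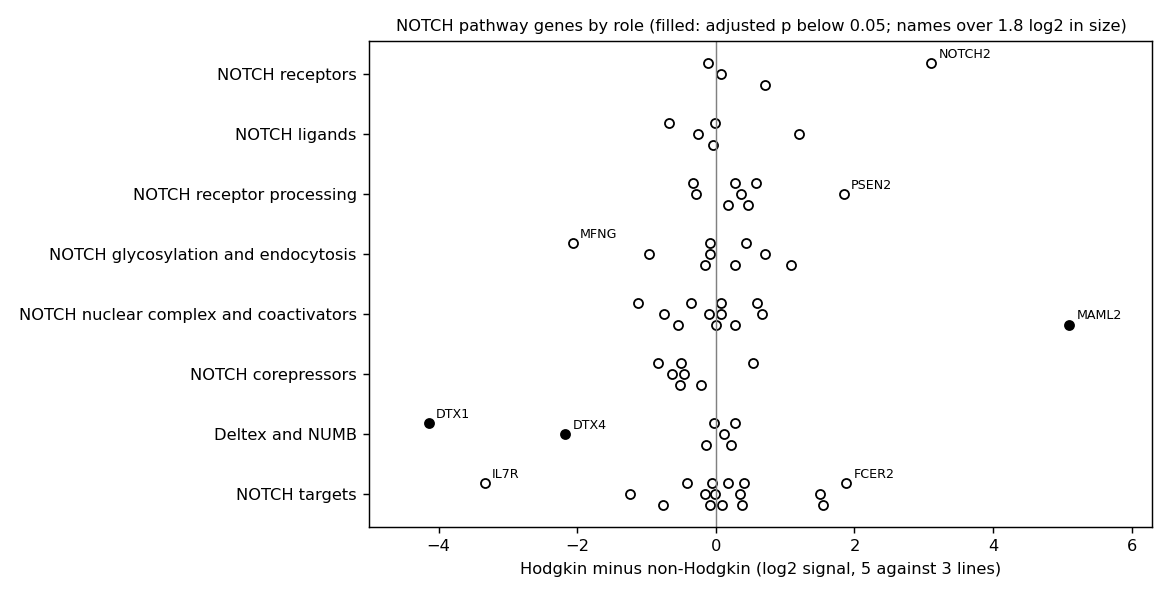
Difference between Hodgkin and non-Hodgkin lines (x axis, log2 signal, 5 against 3 lines of origin) of each measured NOTCH pathway gene, by role (y axis); filled points have an adjusted p below 0.05 and genes over 1.8 log2 in size are named. MAML2 (5.10) lay to the right and DTX1 (-4.14) and DTX4 (-2.17) to the left, and the 65 open points did not pass.

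Partners of the Mastermind-like proteins outside NOTCH signalling were examined too. None of 4 known fusion partners was called, with 1.75 log2 for YAP1 (adjusted p = 0.49, limma) and 1.10 for CRTC3 (adjusted p = 0.559). Of 7 genes for other partners 1 was called, where 1.37% of all genes were called in either direction. This was RUNX2, a transcription factor of bone formation, at 10.68 ± 1.71 log2 (SD, n = 5) against 3.62 ± 0.07 (SD, n = 3), a difference of 7.06 ± 0.92 log2 (SE, adjusted p = 0.0163). RUNX2 ranged from 9.30 in KM-H2 to 12.67 in L428 among the Hodgkin lines and from 3.54 to 3.69 in the others. Its call was lost without SU-DHL-4 (7.10, adjusted p = 0.0598), Namalwa (7.06, 0.0661) or Reh (7.02, 0.0537), and with the mean of its probe sets (1.27, 0.0601).

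Genes with a pattern most like that of a member were ranked by Pearson's r over the 8 lines of origin, among 7033 genes with an SD of at least 0.5 log2. All points share their arrays, and the MAML2 levels fall into groups, so r is a description. For MAML2 the nearest were APOBEC3B, a cytidine deaminase (0.985), FUT4, which makes CD15 (0.983), and IFIH1, an RNA sensor (0.980). NFKBIA, the inhibitor of NF-kappaB (0.977), PIGK of the GPI transamidase (0.977), the elongation factor ELL2 (0.976), the stress factor ATF3 (0.974) and the GTPase RHOC (0.972) followed. In APOBEC3B the Hodgkin mean was 11.05 log2 against 4.82, and in NFKBIA it was 12.77 against 10.03. In all, 124 genes had r above 0.9 with MAML2. Without Reh replicate 1 the r of the genes named ran from 0.954 (ATF3, then ranked 20) to 0.987 (PIGK, then ranked 1).

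The most opposite patterns were those of TNFRSF17, the receptor BCMA (-0.984), ST14, a serine protease (-0.984), JCHAIN, the joining chain of polymeric immunoglobulins (-0.982), and CXXC5, a zinc finger protein (-0.981). JCHAIN was at 3.45 log2 in Hodgkin lines against 10.88. Below -0.9 there were 105 genes. Without Reh replicate 1 the r of the genes named ran from -0.949 (TNFRSF17) to -0.972 (CXXC5).

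MAML1 had fewer near neighbours in pattern, with 13 genes above r = 0.9. The first were CLYBL (0.953), C1orf198 (0.951), PAQR8 (0.940) and KATNIP (0.929). Counting L540 and L540Cy as separate lines brought CLYBL to 0.636 and PAQR8 to 0.478, so these rested on averaging that pair, while C1orf198 stood at 0.910 and KATNIP at 0.898. For MAML3, whose line means in 228508_at span 5.90 to 6.28 log2, the first were PAN3 (0.956), ME3 (0.936), BBS1 (0.927) and LOC283788 (0.925). Each of these was highest in Reh, as was MAML3. Without Reh replicate 1 PAN3 was at 0.921 (then ranked 22), LOC283788 at 0.928 (ranked 15), ME3 at 0.967 and BBS1 at 0.976.

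Genes beside the members in the RefSeq order, 3 measured on each side, were not called. Around MAML2 these were FAM76B (-1.07 log2, adjusted p = 0.0787, limma), CEP57 (-0.00), MTMR2 (1.05), CCDC82 (0.58), JRKL (0.34) and CNTN5 (0.00). The widest of these differences was thus that of FAM76B, towards lower levels in Hodgkin lines, against 5.10 for MAML2 in the other direction. Around MAML1, CANX, a chaperone of the endoplasmic reticulum, differed by 0.85 log2 (adjusted p = 0.0872) and SQSTM1, an autophagy receptor, by 2.03 (adjusted p = 0.171). HNRNPH1, CBY3, LTC4S and MGAT4B, also beside MAML1, were between -0.01 and 1.04. Around MAML3 the widest difference was -1.39 log2 for MGST2 (adjusted p = 0.288), and SETD7, QKILA, MAML3-AS1, SCOC and SCOC-AS1 were between -0.58 and 0.43.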

How the data were processed

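For each probe set the table holds a log2 signal that the authors made with RMA, per the submitters' processing notes. RMA corrects background, normalizes arrays to each other and summarises probes; software, version and settings were not given in the sources used here. Of 54675 probe sets, 62 controls were left out, 41091 had 1 gene symbol, 1801 several and 11721 none in the platform annotation. Through Entrez identifiers 41037 matched RefSeq (GRCh38.p14), and 0 were renamed. No filter on dim genes was applied.

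Line means (L540 with L540Cy) entered limma 3.58.1 (lmFit, then eBayes; R 4.3.3). Tests were two-sided and p-values were adjusted by Benjamini-Hochberg across genes or probe sets; called means an adjusted p below 0.05. Pairs of lines came from a fit of 15 arrays, whose spread rests on the 6 lines with 2 arrays (6 residual degrees of freedom), and the other 3 lines were taken to have the same spread. The fits were tested on simulated data. Python 3.11.15, pandas 2.3.3, numpy 2.4.6 and matplotlib 3.10.9 served for the other steps.

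Members and lists were chosen with earlier results of these data known. From each role list the rule named up to 3 called genes in each direction, or else the 2 with the widest difference. It also took the 8 genes most alike to MAML2, the 4 most opposite, 4 each for MAML1 and MAML3, and the 3 nearest measured genes on each side. Alternatives changed the handling of L540Cy, the blocks, the probe set of a gene, the dim filter, the scaling and the variance model, or left out each line or duplicated array. The 12 numbered arrays without a replicate block were added after seeing the data.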

Additional observations from a re-analysis of the deposited data

How the results depend on the processing

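MAML2 was higher in Hodgkin lines in all 31 alternatives (3.64 to 6.31 log2, adjusted p from 0.000373 to 0.148), and 23 of them kept the call. The 8 losses each came from leaving out a line or Reh replicate 1 (4.41 to 5.34 log2 without a line, 4.85 without that array). Leaving out lines or arrays gave 4.06 to 5.96 log2 for MAML2 in B cell derived Hodgkin lines, 3.87 to 5.46 for MAML2 minus MAML1, 4.57 to 6.34 for MAML2 minus MAML3, and 1 to 4 called NOTCH pathway genes against 3. Leaving out a non-Hodgkin line leaves fewer splits for the exact test. MAML1 and MAML3 were not called in any of their 31 alternatives. MAML3 minus MAML1 passed in 1 of its 26 alternatives, with L540 and L540Cy as 2 lines (-0.75, exact permutation, adjusted p = 0.0357). In the same test its adjusted p was 0.232 with the mean of a gene's probe sets and 0.464 with the most variable probe set. With the mean of a gene's probe sets, the T minus B cell derived difference of MAML3 turned to -0.14 log2 and 18 pairs of lines passed for MAML3 against 0. With the most variable probe set, 242794_at, it turned to -0.55, the B cell derived minus non-Hodgkin difference turned to 0.028, and again 18 pairs passed. For 242794_at itself the group difference turned to 0.32 without L428, 0.22 without HDLM2 and 0.50 without Reh (range -1.07 to 0.50), and that of 207946_at to 0.0037 without KM-H2 replicate 2 (range -0.13 to 0.0037).

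With arrays fitted and the line as a random block, 7 NOTCH pathway genes were called, 599 genes were higher (150 in the comparison of lines) and 475 lower (121). Leaving out lines or arrays gave 68 to 218 higher and 69 to 181 lower. The correlation of replicate differences between lines ranged from -0.07 to 0.36 (median 0.198), with 10 of 15 pairs over 0.1. The replicate numbers were not used as a pairing in the main fits, so an effect shared by arrays of the same number would remain in them. With the replicate block on the 12 numbered arrays the MAML2 difference was 4.37 log2 (adjusted p = 0.0165, limma; 0.00846 without the block), 5 NOTCH pathway genes were called (4 without), 328 genes were higher and 243 lower (416 and 275 without). DTX4 passed with the block (adjusted p = 0.0487) and not without it (0.053). Among the 15 pairs of lines these arrays allow, 7 passed for MAML1 with the replicate block (8 without) and 10 for MAML2 with it and 10 without. Signal over background was not analysed here, which limits what low MAML2 levels show.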

Other observations

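MAMLD1, a gene named for its likeness to the Mastermind-like family but no member of it, was looked at after its values were seen. Its probe set 205088_at read 8.43 and 8.56 log2 in L428 and 7.03 and 6.99 in HDLM2. In the other 11 arrays it read 4.30 to 5.18 log2. L428 and HDLM2 are also the Hodgkin lines in which the MAML3 probe set 242794_at was low, whereas Namalwa, the other low line, was at 4.69 and 5.18 log2 in MAMLD1. No test was made of this pattern.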
